A study of Homo sapiens with 8 samples.

Results

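The immediate early transcription factors followed here are 10 genes, FOS, FOSB, FOSL1, JUN, JUNB, JUND, EGR1, ATF3, IER2 and MYC. They were chosen by name, and every probe set that the platform's annotation gives to one of them was taken, 33 of the 49395 on the array, none of them shared with another gene. A gene's level is the log2 intensity of the brightest of its probe sets, judged by the average of the 8 arrays. On that basis all 10 members passed the level filter, a highest log2 value of at least 6, and stand among the 11529 genes compared. Their levels also stayed above the background range on every array.

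RNA was measured in KBM7 cells, a chronic myeloid leukaemia line with a near-haploid karyotype, in which 1 gene-trap insertion can disable a gene. The JAK2 gene-trap mutant, with and without IFN-gamma, was set against wild-type (WT) cells with IFN-gamma and against WT replicate 1. The TNFRSF1A gene-trap mutant, with and without TNF-alpha, was set against WT cells with TNF-alpha and against WT replicate 2. Cytokine was given for 6 hours, IFN-gamma at 100 ng/ml and TNF-alpha at 10 ng/ml, and all cells were in log-phase growth in medium with fetal calf serum. By the labels, WT replicate 1 belonged to the experiment with IFN-gamma and WT replicate 2 to the one with TNF-alpha. The labels do not say whether a mutant was a single clone. Of the 7 conditions, unstimulated WT had 2 arrays and the other 6 had 1 each, so the comparisons are log2 differences of 2 arrays with no p-value. The yardstick is the SD over genes of the difference between the 2 WT replicates, 0.38 on the log2 scale, and a gene was called from 2-fold upward. Because the 2 replicates belong to different experiments, the yardstick also takes in differences between experiments. It is wide for cytokine differences within 1 experiment, whose SD over genes was 0.12 to 0.22. A value within the yardstick is therefore not shown to be unchanged.

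Immediate early genes are transcribed without new protein synthesis when a growth factor, cytokine or stress signal reaches the MAP kinases and the serum response factor, and their transcripts are short-lived. FOS and JUN family proteins pair through leucine zippers into the AP-1 factor, JUN being a strong and JUNB often a weaker activator. EGR1 is a zinc finger factor of the mitogen response, ATF3 a stress-induced zipper protein that often represses, IER2 a nuclear regulator, and MYC the helix-loop-helix factor that drives growth and ribosome production. IFN-gamma signals through the kinase JAK2, and TNF-alpha through its receptor TNFRSF1A to NF-kappaB and the JUN kinases. KBM7 cells carry the BCR-ABL kinase of chronic myeloid leukaemia, which itself feeds the MAP kinases.

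Array medians ran from 63.9 to 66.9 intensity units. Of 8 markers of the line, 7 were measured. PTPRC, KIT, CSF1R and CD68 were above the background range on every array. MPO and ITGAM were above it on some arrays only, and the myeloid factor gene SPI1 lay within it on all. Among 22 measured markers of other cell types, 10 were above background on every array, led by KRT18 and CD3D, and CD3E, CD2, EPCAM and CDH1 lay in the background range on all. JAK2 probe sets read between 3.61 and 5.32 in JAK2 mutant cells, against 5.97 to 7.01 in the WT arrays of that experiment. The brightest TNFRSF1A probe set read 6.55 with TNF-alpha and 6.56 without in the TNFRSF1A mutant, against 9.23 and 9.36 in WT. Both stimulations registered in WT cells. CXCL10, a chemokine gene, rose by at least 5.30 with IFN-gamma and by at least 5.96 with TNF-alpha, where the unstimulated value was set to the edge of the background range.

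Promoter sequences are shown for the 4 members on which the results below turn, JUN, ATF3, EGR1 and JUNB. They are the 250 bases before the transcription start in RefSeq (GRCh38.p14), in the direction of the gene. JUN is taken from the minus strand at chr1:58784048-58784297. ATF3 is taken from the plus strand at chr1:212565157-212565406, the more upstream of its 2 listed starts. EGR1 is from the plus strand at chr5:138465229-138465478, and JUNB from the plus strand at chr19:12791236-12791485. Capitals mark motif matches on either strand.
JUN: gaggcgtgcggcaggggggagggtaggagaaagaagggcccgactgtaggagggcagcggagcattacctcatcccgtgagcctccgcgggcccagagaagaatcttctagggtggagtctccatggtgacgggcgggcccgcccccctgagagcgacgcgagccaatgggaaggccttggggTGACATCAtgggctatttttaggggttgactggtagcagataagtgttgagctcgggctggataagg
ATF3: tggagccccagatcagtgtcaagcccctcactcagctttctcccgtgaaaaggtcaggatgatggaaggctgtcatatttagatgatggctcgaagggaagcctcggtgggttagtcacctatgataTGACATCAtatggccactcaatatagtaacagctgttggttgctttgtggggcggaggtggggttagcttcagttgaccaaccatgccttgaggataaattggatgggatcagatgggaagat
EGR1: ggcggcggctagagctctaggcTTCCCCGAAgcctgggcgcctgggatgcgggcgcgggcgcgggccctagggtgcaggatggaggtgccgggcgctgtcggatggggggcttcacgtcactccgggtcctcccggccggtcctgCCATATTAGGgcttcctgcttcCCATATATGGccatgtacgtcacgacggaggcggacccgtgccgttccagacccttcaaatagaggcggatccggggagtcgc
JUNB: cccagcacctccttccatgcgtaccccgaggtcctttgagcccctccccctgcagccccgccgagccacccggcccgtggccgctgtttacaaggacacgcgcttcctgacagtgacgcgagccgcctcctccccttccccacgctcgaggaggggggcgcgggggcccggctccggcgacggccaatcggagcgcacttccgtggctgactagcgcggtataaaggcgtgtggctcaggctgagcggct
JUN and the upstream ATF3 start both hold TGACATCA, 67 and 123 bases before the start, a site known in the JUN promoter to bind JUN with ATF partners. These letters occur in 2.37% of the 35116 promoter windows of this length, and they were added to the search after the sequences had been read. EGR1 holds 2 CArG boxes, the site of the serum response factor, which are found in 1.16% of windows, and 1 match to TTCNNNGAA, the GAS motif, found in 6.57%. No motif searched is in the JUNB window. The other motifs searched were TGACGTCA (in 1.65% of windows), TGANTCA (6.57%), CACGTG (6.34%) and the kappaB site (9.96%). No matches overlapped in the 4 sequences shown. A match is a description of the letters only, and entries of 8 members were searched. Among the members not shown, JUND held TGACGTCA.

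**Figure D1:**
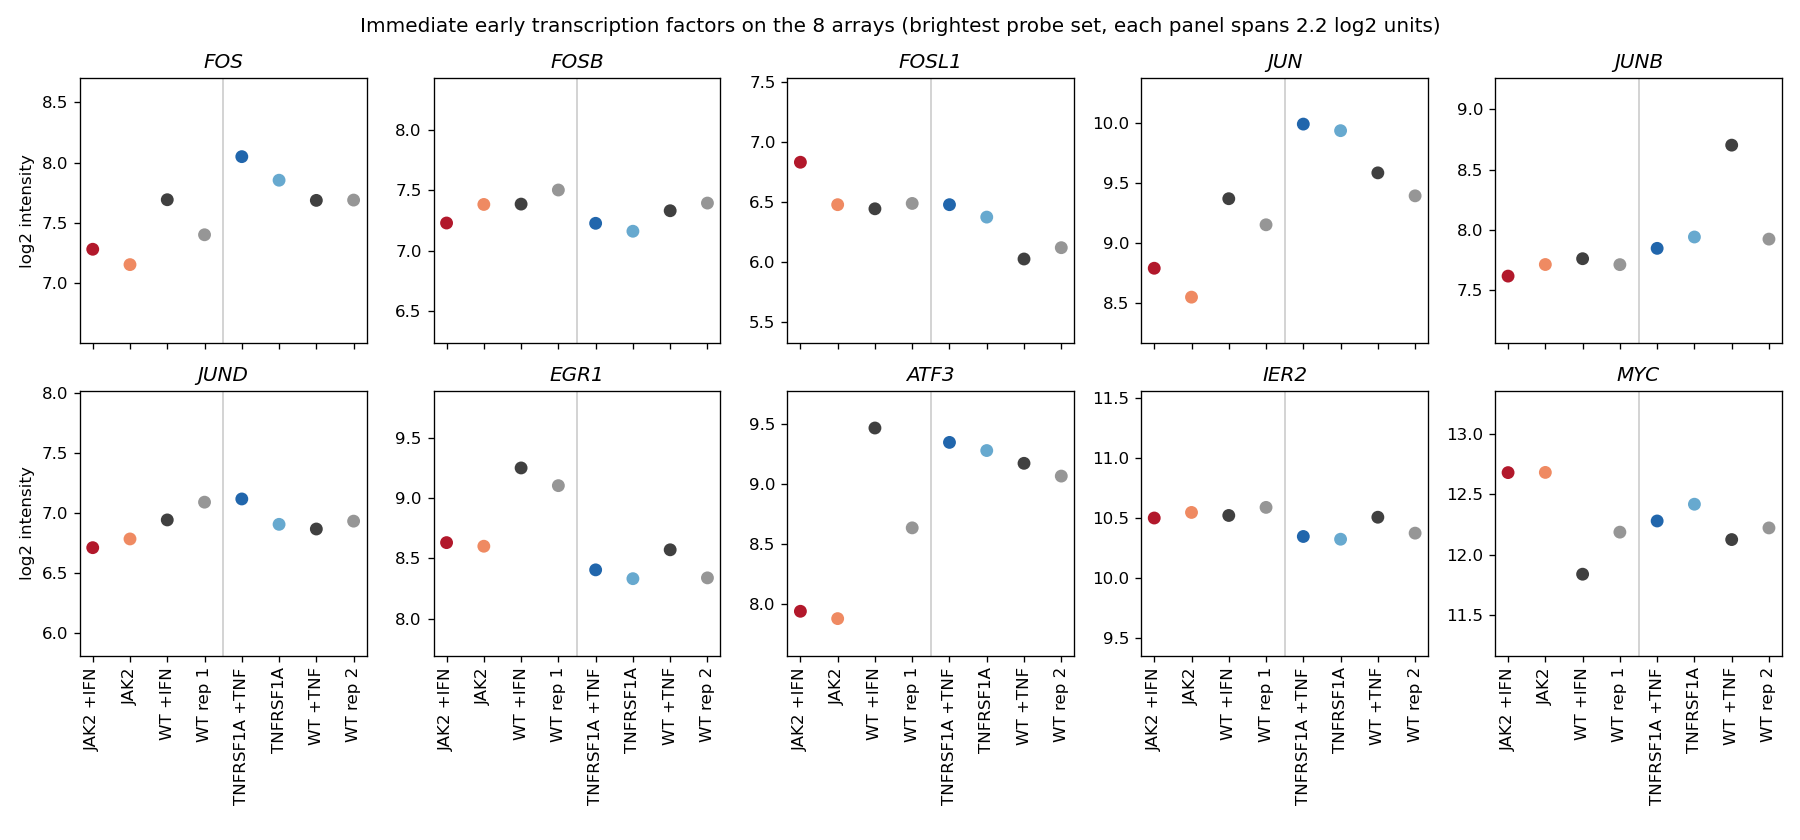
Log2 intensity of each gene's brightest probe set on the 8 arrays, 1 point per array, with every panel spanning the same log2 range and no error bars because each point is 1 array. Arrays of the IFN-gamma experiment stand left of the grey line and those of the TNF-alpha experiment right of it, mutants left of WT. JAK2 mutant arrays are the lowest for JUN and ATF3 and the highest for MYC, and JUNB stands out only in WT with TNF-alpha.

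Levels over the 8 arrays spanned at least 1 log2 unit for ATF3, JUN and JUNB. FOSB, a FOS relative, lay between 7.16 and 7.50, and JUND, the steadily expressed JUN relative, between 6.71 and 7.12. FOSL1, which encodes FRA1, lay between 6.02 and 6.83, and IER2 between 10.33 and 10.59. FOS ranged over 7.15 to 8.05, EGR1 over 8.33 to 9.25 and MYC over 11.84 to 12.68. FOSB and IER2 thus varied least, each by less than the yardstick over all conditions. Levels of different probe sets cannot be ranked against each other.

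After 6 hours of IFN-gamma no member had passed 2-fold in either genotype. In JAK2 mutant cells 0 of the 10 passed 2-fold, where 0% of all genes did. In WT cells 0 passed as well, where 0.607% did. The members' median difference was 0.01 in the JAK2 mutant and 0.00 in WT, against medians over all compared genes of 0.00 and -0.02. With WT replicate 2 as the control, 0 members passed in WT, where 2.35% of genes did. Beyond the yardstick lay 0 members in the mutant, where 2.64% of genes did, and 1 in WT, where 4.04% did. An array cannot tell fewer expressing cells from less RNA per cell.

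ATF3 had the largest value of the members with IFN-gamma. Its log2 level was 7.94 with IFN-gamma and 7.88 without in the JAK2 mutant, and in WT it was 9.47 with IFN-gamma and 8.64 in replicate 1. The difference was 0.06 in the mutant and 0.83 in WT, which placed ATF3 at rank 99 of the 11529 genes from the highest in WT. Only the WT value was beyond the yardstick. It depended on the control, since it was 0.40 against WT replicate 2, and the other ATF3 probe sets above background gave values down to 0.02. The mutant response minus the WT response was -0.77, a difference with no test.

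MYC lay on the other side. Its level was 12.68 both with and without IFN-gamma in the JAK2 mutant, and 11.84 with IFN-gamma against 12.19 in WT replicate 1. The WT difference of -0.35 was within the yardstick, at rank 175 from the lowest, and was -0.38 against WT replicate 2. In the mutant it was 0.00 in size. MYC, IER2, JUNB and JUND are each represented by 1 probe set. Those of JUNB and JUND, and the brightest of FOSB and FOSL1, carry the annotation mark for possible cross-hybridisation.

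The remaining members stayed within the yardstick in both genotypes. FOS had differences of 0.13 in the JAK2 mutant and 0.29 in WT, and JUN of 0.24 and 0.22. EGR1 had 0.03 and 0.15, but its WT value was 0.91 against WT replicate 2, because EGR1 read lower in that control. FOSL1 had 0.35 in the mutant and -0.04 in WT. Its second probe set above background gave -0.37 in the mutant, so the FOSL1 probe sets disagreed in sign. FOSB, JUNB, JUND and IER2 had values between -0.15 and 0.05 over both genotypes.

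TNF-alpha set 1 member apart. In TNFRSF1A mutant cells 0 of the 10 passed 2-fold, where 0% of all genes did, and in WT cells 0 passed, where 0.321% did. The members' medians were 0.07 in the mutant and 0.05 in WT, against -0.02 and 0.01 over all genes. Against WT replicate 1, 0 members passed in WT, where 2.11% of genes did. Beyond the yardstick lay 0 members in the mutant, where 1.04% of genes did, and 1 in WT, where 3.61% did.

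JUNB, the AP-1 subunit, came closest to the threshold. Its level was 7.84 with TNF-alpha and 7.94 without in the TNFRSF1A mutant, while WT read 8.70 with TNF-alpha and 7.92 in replicate 2. On the linear scale the WT intensities were 417 with TNF-alpha and 242 without. WT with TNF-alpha was the highest of the 8 arrays, and the next was 7.94. The difference was -0.09 in the mutant and 0.78 in WT, or 0.99 against WT replicate 1. It ranked 62 from the highest against its own control and 163 against the other. The mutant response minus the WT response was -0.88, again untested. With TNF-alpha in both, the mutant minus WT difference was -0.86. IFN-gamma gave JUNB only 0.05 in WT.

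No other member was beyond the yardstick with TNF-alpha in either genotype. JUN had 0.05 in the TNFRSF1A mutant and 0.19 in WT, FOS 0.20 and 0.00, and EGR1 0.07 and 0.23. ATF3 had 0.07 and 0.11, and MYC -0.14 and -0.10. The highest mutant value was 0.21 for JUND. EGR1 turned to -0.53 in WT when WT replicate 1 was the control, and ATF3 stood at 0.54 there.

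**Figure D2:**
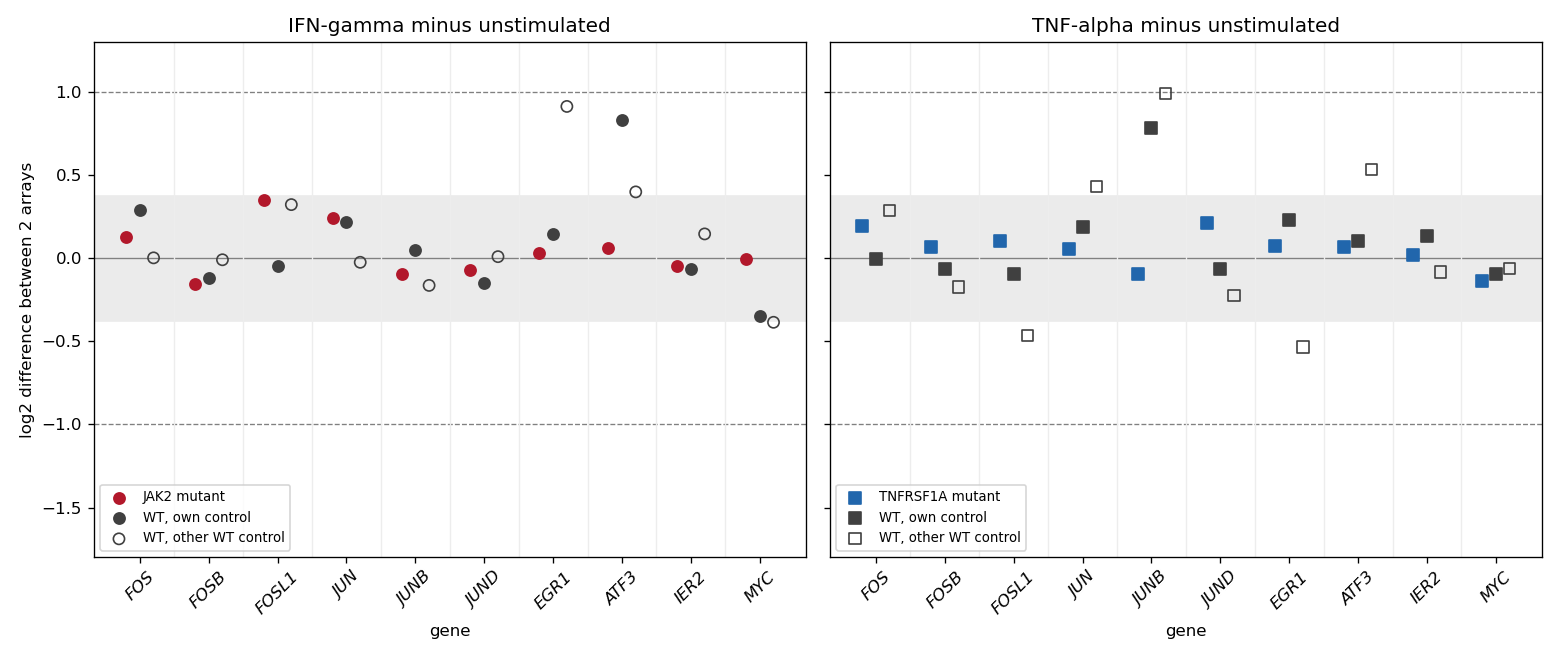
Log2 difference between the stimulated and the unstimulated array for each member, after IFN-gamma (left) and TNF-alpha (right). Filled points use the control of the same experiment and open points the other WT control. The grey band is the WT-pair SD of 0.38 and dashed lines mark 2-fold. ATF3 with IFN-gamma (0.83) and JUNB with TNF-alpha (0.78) in WT stand above the band, and the mutants' points lie within it.

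More members differed between JAK2 mutant and WT cells than between stimulated and unstimulated cells of either genotype. In the JAK2 mutant with IFN-gamma 1 of the 10 members passed 2-fold against WT with IFN-gamma, ATF3, where 3.02% of genes did. Without cytokine 0 passed against WT replicate 1, where 2.13% did, and 1, again ATF3, against WT replicate 2, where 6.55% did. Differences beyond the yardstick were seen for 6 members with IFN-gamma, where 20% of genes had one, and for 4 without, where 15.5% had one. The median over members was -0.19 with IFN-gamma and -0.18 without, against 0.03 over all genes in both. The 2 pairs share no array, so each difference can be read again in the other. Both pairs come from the same mutant, WT cells and experiment, so a repeat is not an independent replication of a genotype difference. By more than the yardstick in both pairs, 3 members were lower, JUN, EGR1 and ATF3, where 6.03% of genes were, and MYC was higher, where 5.26% were.

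At the levels given above, ATF3 was lower in the JAK2 mutant than in WT, by 1.52 with IFN-gamma in both. Without cytokine the difference was -0.75. Against WT replicate 2 the unstimulated difference was -1.19. Both JAK2 mutant arrays were below the 6 others. The ATF3 probe sets above background, 3 of its 7, all gave negative values in both pairs, from -0.21 to -0.75 without cytokine and from -0.47 to -1.52 with it. Only the brightest passed 2-fold, and only with IFN-gamma, where 2.54% of all probe sets did.

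JUN read 8.79 with IFN-gamma and 8.55 without in the JAK2 mutant, against 9.37 with IFN-gamma and 9.15 in WT replicate 1. The mutant was lower by similar amounts in both pairs, -0.58 and -0.60, and by -0.84 against WT replicate 2. All 4 JUN probe sets had negative values in both pairs, from -0.17 to -0.71. FOS, the partner of JUN in AP-1, read 7.28 and 7.15 in the mutant, against 7.69 and 7.40. Its differences were -0.41 and -0.25, with the same sign in all 4 of its probe sets. By their brightest probe sets, FOS and JUN thus had their lowest readings of the 8 arrays in the JAK2 mutant, as did ATF3 and JUND. These were 4 of 10 members, where 18.3% of genes had both JAK2 arrays below all others.

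EGR1 read 8.63 and 8.60 in the JAK2 mutant, against 9.25 with IFN-gamma and 9.11 in WT replicate 1. The differences were -0.62 and -0.50. Against WT replicate 2 the value turned to 0.26, so the direction for unstimulated cells rested on the control. Of 4 EGR1 probe sets above background, 3 were lower in both pairs, and the dimmest gave 0.08 with IFN-gamma and 0.36 without. MYC differed by 0.85 with IFN-gamma, at rank 69 of all genes from the highest, and by 0.50 without, or 0.46 against WT replicate 2. Its JAK2 mutant arrays were the highest of the 8, as was true of 26.6% of genes. FOSL1 had 0.39 and -0.01, and FOSB, JUNB, JUND and IER2 lay between -0.31 and 0.00.

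The 3' to 5' intensity ratio of the actin control probe sets, a reading of RNA integrity, was 6.47 with IFN-gamma and 5.74 without in the JAK2 mutant, against 4.81 and 4.41 in WT. The corresponding GAPDH ratios were 1.25 and 1.27, against 1.20 and 1.21. The part of RNA integrity in the differences above was not tested.

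TNFRSF1A mutant cells showed 0 members past 2-fold with TNF-alpha, where 1.22% of genes passed, and 0 without, where 0.98% did. Against WT replicate 1 the count without cytokine was also 0, where 1.7% of genes passed. Beyond the yardstick lay 3 members with TNF-alpha, where 10.5% of genes did, and 1 without, where 10.8% did. JUN was higher than WT by more than the yardstick in both pairs, as were 2.9% of genes. By that measure 0 members were lower in both pairs, where 2.26% of genes were. The JUN level was 9.99 with TNF-alpha and 9.93 without in the mutant, against 9.58 with TNF-alpha and 9.39 in WT replicate 2. The differences were 0.41 and 0.54, or 0.78 against WT replicate 1. Of 4 JUN probe sets, all were positive without cytokine and 3 with it.

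FOS read 8.05 and 7.85 in the TNFRSF1A mutant, against 7.69 in both WT arrays of that experiment. The differences were 0.36 and 0.17, within the yardstick, and positive in all 4 probe sets in both pairs. By the brightest probe sets, both mutant arrays were the highest of the 8 for FOS and JUN, where 11.7% of genes had that. They were the lowest for FOSB and IER2, where 9.68% had that. These were narrow margins, with FOSB at 7.23 and 7.16 in the mutant and at 7.23 in the next array up, and IER2 at 10.35 and 10.33 in the mutant and at 10.38 in the next. The other values with TNF-alpha were 0.45 for FOSL1 and the -0.86 of JUNB described above, and the rest lay between -0.17 and 0.25. The FOSL1 value was -0.14 in its other probe set. The actin ratio was 5.53 and 4.51 in the mutant, against 4.81 and 3.27 in WT, and its part was again not tested.

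**Figure D3:**
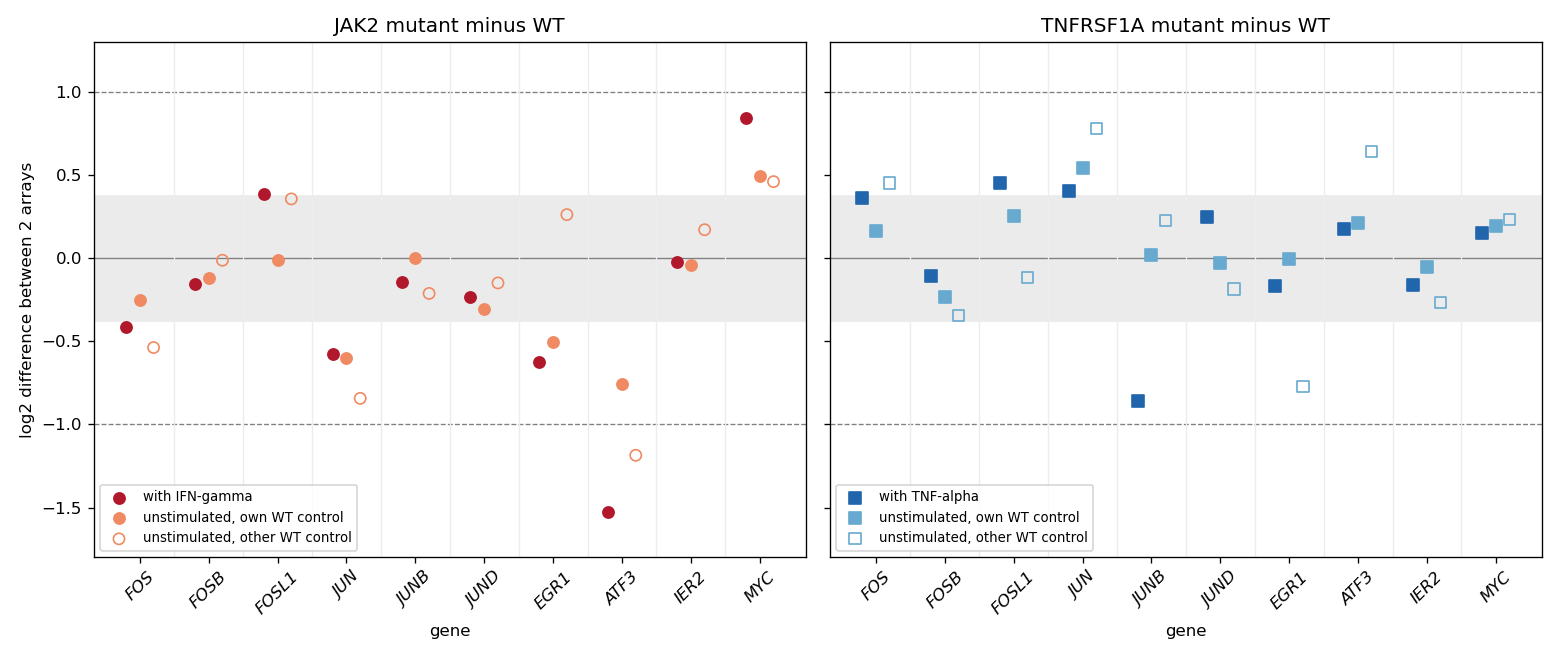
Log2 difference between mutant and WT arrays for each member, JAK2 mutant on the left and TNFRSF1A mutant on the right. Filled points compare arrays of the same experiment and open points use the other WT control. The grey band is the WT-pair SD of 0.38 and dashed lines mark 2-fold. JUN is below the band in the JAK2 mutant and above it in the TNFRSF1A mutant, and only ATF3 crosses a dashed line.

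JUN differed from WT in opposite directions in the 2 mutants. By its brightest probe set, it was lower in both JAK2 pairs and higher in both TNFRSF1A pairs by more than the yardstick, which held for 0.746% of all genes. The next brightest JUN set also met this, and the 2 dimmest did not. These 2 had -0.32 and -0.17 in the JAK2 mutant with IFN-gamma. In the TNFRSF1A mutant they had -0.04 and 0.21 with TNF-alpha, and 0.23 and 0.26 without. JUN and FOS were the members with both JAK2 arrays lowest and both TNFRSF1A arrays highest of the 8, where 4.87% of genes had that order. This is the order of their brightest probe sets, and a dimmer set of each broke it. That FOS set read 7.37 in the unstimulated JAK2 mutant and 7.27 in WT with TNF-alpha. That JUN set read 7.11 in the TNFRSF1A mutant with TNF-alpha and 7.15 in WT with it. Set directly against each other without cytokine, 2 of 10 members passed 2-fold, where 4.93% of genes did. JUN was lower in the JAK2 mutant by -1.39 and ATF3 by -1.40. Beyond the yardstick lay 3 members, where 32.8% of genes did. FOS differed by -0.70 and the other members by -0.23 to 0.27. At the probe set level, 3 of 4 JUN sets and 1 of 3 ATF3 sets above background passed, where 4.52% of all probe sets did. This direct comparison runs across the 2 experiments.

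The 2 WT replicates show how much that matters. In WT replicate 2 against replicate 1, 0 of the 10 members passed 2-fold, where 1.99% of genes did. EGR1 read 8.34 in replicate 2 and 9.11 in replicate 1, a difference of -0.77. ATF3 read 9.07 and 8.64, a difference of 0.43. These 2 members lay beyond the yardstick, as did 26.1% of genes. The others lay between -0.37 for FOSL1 and 0.29 for FOS. One EGR1 probe set passed 2-fold with -1.01, where 2.44% of probe sets did, and the 3 brightest sets had -0.77, -1.01 and -0.75.

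EGR1 readings were low in the whole TNF-alpha experiment. Its 4 arrays lay between 8.33 and 8.57, against 8.60 to 9.25 in the IFN-gamma experiment. JUN and JUNB also did not overlap between the experiments, with the TNF-alpha experiment higher, at 9.39 to 9.99 against 8.55 to 9.37 for JUN and 7.84 to 8.70 against 7.61 to 7.76 for JUNB. Since 39.8% of all genes did not overlap between the experiments, 3 of 10 members is near that share. The experiment cannot be told apart from genotype and cytokine in these arrays, except through the WT controls.

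**Figure D4:**
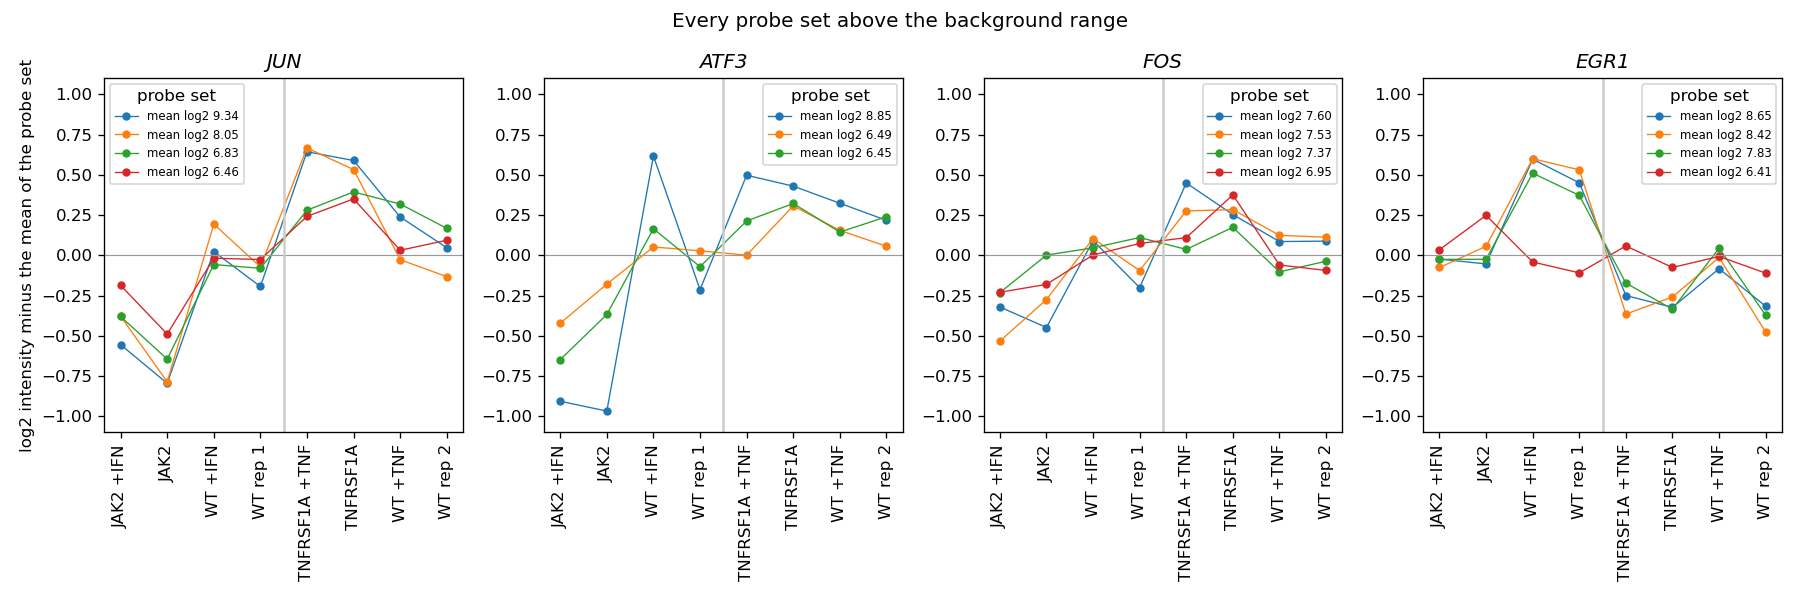
Log2 intensity of every probe set above the background range for JUN, ATF3, FOS and EGR1 on the 8 arrays, each probe set centred on its own mean, with lines joining the readings of 1 probe set. The 4 JUN probe sets are lowest in the JAK2 mutant. The brightest ATF3 set varies more than its 2 others, and the dimmest EGR1 set does not share the pattern of its 3 brighter ones.

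Genes of the same programme were read from lists of related genes. With TNF-alpha in WT, 3 of 25 other immediate early regulators rose, and 0 fell, while 36 of all 11529 genes rose. IER3, a survival gene, rose by 2.67, DUSP2, a MAP kinase phosphatase gene, by 1.21, and IER5, a relative of IER2, by 1.08. All 3 also passed against WT replicate 1, with 1.97, 1.08 and 1.04. Against their own control the list had a median of 0.13, against 0.01 over all genes. None of the 7 other EGR, NR4A and NAB genes passed, with a median of 0.37. Among these the orphan nuclear receptor genes NR4A3 and NR4A1 had 0.64 and 0.53, and EGR3 had 0.59. These values depended on the control, since against WT replicate 1 NR4A3 had -0.78, EGR3 -0.23 and NR4A1 0.32. NR4A3 in WT replicate 2 lay in the background range, so its values against that array are as read. In TNFRSF1A mutant cells given TNF-alpha, 0 of 25 and 0 of 7 passed, and with IFN-gamma the same counts of 0 held in JAK2 mutant and in WT cells against their own controls. Against WT replicate 2, NR4A3 had 1.37, and GADD45A, a stress gene, -1.49 with IFN-gamma in WT, and EGR3 passed 2-fold as well. Of 8 other AP-1 and zipper partners, 5 SRF-related genes and 11 MAP kinase cascade genes, 0 passed with either cytokine in any genotype against their own controls. Against WT replicate 2 the zipper gene BATF had 1.05 with IFN-gamma in WT.

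Some relatives of the members were lower in the JAK2 mutant than in WT, and KLF2 was higher. NR4A3 was lower by at least 1.57 with IFN-gamma and by at least 1.51 without, and EGR3 by 1.28 and 1.03. So 2 of 7 passed in both pairs. Over all 11529 genes, 308 were lower by 2-fold with IFN-gamma and 220 without, while 40 and 26 were higher. FOSL2, another FOS family gene, was lower by 1.28 with IFN-gamma, and had -0.93 without. The small MAF gene MAFF was lower as well with IFN-gamma, reading 6.44 in the mutant against 7.54 in WT, and had -0.46 without. These were 2 of 8 other AP-1 and zipper partners, and 0 of 8 passed without cytokine. That list had medians of -0.17 and -0.08, against 0.03 over all genes in both pairs. IER3 was lower by 1.92 and 1.91 and the stress gene GADD45B by 1.59 and 1.11, while KLF2 was higher by 1.71 and 1.61. Of 25 other immediate early regulators, 2 were thus lower and 1 higher by 2-fold in each pair. That list had a median of 0.06 in both, against 0.03 over all genes. The calls of NR4A3 and EGR3 without cytokine were lost against WT replicate 2, where they had -0.85 and -0.21. That NR4A3 value is as read, and both of its readings lay in the background range, so it is not a measured difference. In WT replicate 2 against replicate 1, NR4A3 was lower by at least 1.36 and EGR3 had -0.82. IER3, GADD45B and KLF2 kept theirs, with -1.22, -1.55 and 1.28.

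Genes of the ATF4 and CHOP stress response were low in the same arrays. Against WT, 3 of 12 were lower by 2-fold in the JAK2 mutant with IFN-gamma and 2 of 12 without, and 0 were higher. Over all 11529 genes, 308 and 220 were lower, and 40 and 26 were higher. The list medians were -0.74 and -0.61, against 0.03 over all genes in both pairs. DDIT3, which encodes CHOP, was lower in both pairs. It read 6.54 with IFN-gamma and 6.54 without in the mutant, against 8.54 and 8.42 in WT. TRIB3, an inhibitor of AKT signalling, was lower by 1.35 and 1.32. Against WT replicate 2, DDIT3 and TRIB3 had -2.80 and -1.36 without cytokine. In the TNFRSF1A mutant 0 of 12 passed, with medians of -0.05 and 0.04.

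Of 16 MYC target genes, 0 passed in either JAK2 pair, where 3.02% of genes did with IFN-gamma and 2.13% without. The list medians were 0.16 with IFN-gamma and 0.15 without, against 0.03 over all genes in both pairs. The ornithine decarboxylase gene ODC1 had 0.65 and 0.46, and CAD, an enzyme of pyrimidine synthesis, had 0.56 in the pair with IFN-gamma and 0.55 without. This count rested on the control. Against WT replicate 2, ODC1 had 1.61, CAD 1.52, and the ribosome production genes RRS1 and NOP56 1.07 each, all past 2-fold, where 6.55% of genes passed. In WT replicate 2 against replicate 1, ODC1 had -1.16 and CAD -0.97. In the TNFRSF1A mutant 1 of 16 passed in each pair, where 1.22% of genes did with TNF-alpha and 0.98% without. This was the cyclin gene CCND2, lower than in WT by 1.65 with TNF-alpha and by 1.31 without. The call without cytokine was lost against WT replicate 1, where CCND2 had -0.32, and the WT replicates differed by 0.99. Among 10 MYC partners, as read, 2 passed in the JAK2 mutant against WT with IFN-gamma and 1 without, where 3.02% and 2.13% of genes did. MXD1, an antagonist of MYC, was lower than in WT by 1.00 with IFN-gamma and had -0.95 without. MYCN had -1.54 and -2.04 as read, but the mutant values lay in the background range, and with that range as the floor it was lower by at least 0.16 and 0.48.

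For the 3 members whose levels spanned at least 1 log2 unit, the genes with the most similar pattern over the 8 arrays were taken, by the root mean square difference of centred log2 values. The arrays share genotypes and experiments, so this is a description. For ATF3 these were WIPI1, an autophagy gene, at 0.13, NEDD9, an adhesion scaffold gene, at 0.16, and the kinase gene JAK3 at 0.17. For JUN they were IFI27L2, CNST and NRN1, at 0.11, 0.11 and 0.12. For JUNB they were EBI3, a cytokine subunit gene that left the background range only in WT with TNF-alpha, at 0.07, TNIP1, a gene of the A20-binding inhibitor of NF-kappaB, at 0.08, and NINJ1 at 0.09.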

How the data were processed

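RNA of 8 KBM7 samples was hybridised to 1-colour Affymetrix arrays. The deposited values are intensities on a linear scale, which the authors made with RMA, and the submitters' processing notes name Affymetrix Expression Console 1.1 for it. The return from RMA's log2 values to linear ones was inferred from the values, and log2 was taken here. RMA forces equal distributions and compresses small differences of dim probe sets. Of 49395 probe sets, 44994 had 1 gene, 1832 several and 2569 were unlisted. Symbols were updated against RefSeq (GRCh38.p14). A gene's value was its brightest single-gene probe set, and 11529 of 18132 genes with a log2 value of at least 6 on some array were compared. On each array the background range runs up to the third quartile of the background controls, 5.76 to 6.04, and a probe set counts as above it when its mean exceeds 6.04.

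Comparisons are log2 differences between single arrays, called at 2-fold. Nothing in the labels says whether the 2 WT samples were separate cultures. Alternatives were other thresholds, filters, probe set rules, scalings and WT controls, and a limma 3.58.1 fit of the 7 conditions with 1 residual degree of freedom and Benjamini-Hochberg adjustment; script and fit were tested on simulated data. Figures used matplotlib 3.10.9. Depth does not apply to arrays, and their number limits the precision. The members and the gene lists were chosen with earlier results of these data known. All 10 members were named, with up to 4 members of each list that passed 2-fold, their values in paired comparisons, and the 3 most similar genes of members spanning 1 log2 unit. NR4A1, ODC1, CAD, RRS1, NOP56, BATF and GADD45A were named after their values were seen.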

Additional observations from a re-analysis of the deposited data

Results flagged for a closer look

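JUN, FOS and ATF3 were flagged because their differences from WT had opposite signs in the 2 mutants in every pair of arrays. The share of all genes with this pattern of signs was not taken. JUN had -0.58 with cytokine and -0.60 without in the JAK2 mutant, and 0.41 and 0.54 in the TNFRSF1A mutant. FOS had -0.41 and -0.25 in the JAK2 mutant, and 0.36 and 0.17 in the TNFRSF1A mutant. ATF3 had -1.52 and -0.75 in the JAK2 mutant, and 0.21 without and 0.17 with cytokine in the TNFRSF1A mutant. The FOS and ATF3 values in the TNFRSF1A mutant, and the -0.25 of FOS, were within the WT-pair SD. With TNF-alpha in that mutant, 1 of 3 ATF3 probe sets above background had the other sign, at -0.15, as did 1 of 4 JUN sets, at -0.04. JUNB had opposite signs between genotypes with TNF-alpha, with a value of -0.094 in the TNFRSF1A mutant and of 0.78 in WT. These differences between groups were not tested.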

How the results depend on the processing

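At a threshold of 1.5-fold, 1 member passed with IFN-gamma in WT (ATF3; 1.52% of all genes), 1 with TNF-alpha in WT (JUNB; 1.17%), 2 in the unstimulated JAK2 mutant against WT (JUN and ATF3, where 6.16% of genes passed) and 3 in that mutant with IFN-gamma (EGR1, ATF3 and MYC, where 8.35% passed). It also gave 1 in the TNFRSF1A mutant with TNF-alpha (JUNB, where 3.76% passed), 3 between the mutants (FOS, JUN and ATF3, where 17.1% passed) and 1 between the WT replicates (EGR1, where 11.2% passed). At 3-fold, 0 passed in the JAK2 mutant with IFN-gamma, where 1.29% of genes did, or between the mutants, where 1.55% did. With the other WT control, 1 member passed in the unstimulated JAK2 mutant, ATF3, where 6.55% of genes did. With the mean of a gene's probe sets, 0 passed in the JAK2 mutant with IFN-gamma, where 2.25% of genes did, and 1, JUN, between the mutants, where 3.63% did. ATF3 then missed the level filter, so its calls there were lost because it was not compared. The limma fit called 0 members in any comparison, with lowest adjusted p-values of 0.33 for ATF3 in the JAK2 mutant with IFN-gamma and 0.30 for JUN between the mutants, and it called 0 to 21 of all genes over its 9 comparisons. At an unadjusted p under 0.05 it had 2 members in the unstimulated JAK2 mutant, where 6.25% of genes passed, 2 in that mutant with IFN-gamma (4.63%), 2 between the mutants (7.72%), and 0 or 1 in the other 6, where 0.0087% to 1.87% passed. For the WT replicates no such fit exists, since their difference is its only residual. Without probe sets marked _x_at JUNB and JUND had no value. Of 710 single member values under alternatives, 687 moved by less than the WT-pair SD, and 0 of the called values turned round. Many of them could not move. A higher level filter leaves a kept member's value as it was, as does the probe set mean for members with 1 probe set. The limma estimate repeats the main value in pairs without unstimulated WT. The called values came from comparisons with no other WT control. These counts therefore do not measure stability. Centring, loess and quantile scaling changed no count of members. Asking for 2-fold against each of the WT controls, a rule added after the data were seen, gave 0 members, where 0.25% to 1.67% of genes passed. No paired analysis was possible because the groups compared share fewer than 2 replicate numbers.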
